A study of Mus musculus with 52 samples.

Results

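Interferon-stimulated genes were followed in mouse dendritic cells of the cDC1 type, marked by CD103, that had met prostaglandin E2 (PGE2), melanoma-conditioned medium or the double-stranded RNA mimic poly I:C. The set holds 43 genes, which were matched by symbol among 23135 genes of the count table, and every one was found. Its members fall into IFIT proteins (5), the OAS family (5), other antiviral effectors (7), the ISG15 system (3), transcription factors (4), nucleic acid sensors (6), interferon-induced GTPases (7) and a remainder of 6. They were sorted by their response to poly I:C and by the direction in which PGE2 shifted it.

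All groups share an in vitro origin: C57BL/6 bone marrow was cultured with GM-CSF and FLT3 ligand, and CD103+ cells were sorted. There were 52 libraries in 13 groups of 4, lettered A to D. The 9 groups collected at 4 h were untreated cells, cells with PGE2 (100 ng/ml), cells in medium conditioned by BRAFV600E melanoma cells (control CM), cells in medium of Ptgs1/Ptgs2-/- BRAFV600E cells (Ptgs-deficient CM), and 5 groups that met an antagonist (5 uM) of a PGE2 receptor before PGE2. The antagonists were SC-19220 (EP1), PF-04418948 (EP2), L-826,266 (EP3) and L161,982 (EP4). A combined group is titled EP2 and EP4, but its treatment label names SC-19220 with L161,982, so that the titled EP2 block cannot be told apart from an EP1 block. The 4 groups collected at 24 h were untreated cells, cells with PGE2 (100 ng/ml), cells with poly I:C (10 ug/ml) for the last 4 h, and cells with PGE2 for 24 h and poly I:C for the last 4 h.

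Poly I:C is recognised in endosomes by TLR3, which cDC1 carry at high levels, and in the cytosol by the helicase MDA5. Both routes lead to interferon, which binds its receptor, activates a transcription factor complex that includes STAT2 and IRF9, and switches on genes that carry an interferon-stimulated response element (ISRE). Interferon gamma and some other signals act at a different site, the GAS element. PGE2 acts through the receptors EP1 to EP4, of which EP2 and EP4 raise cyclic AMP.

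The start-site sequences of members that PGE2 moved in opposite directions under poly I:C are shown first, because the ISRE core stands in members of both kinds. They come from RefSeq promoters on GRCm38.p6 and read 5′ to 3′ on the strand of the gene. Capitals mark matches to the ISRE core GAAANNGAA on either strand, and overlapping matches run together. Each is the part of the 200 bases before the start that lies in no annotated exon, except for Gbp2, where 30 bases around the match are given. Ifit3 (chr19:34583329-34583528, plus strand), Ifit1bl1 (chr19:34601969-34602168, minus strand) and Gbp2 (chr3:142620595-142620624, plus strand) were higher with PGE2. Ifit1 (chr19:34640744-34640870, plus strand), Rsad2 (chr12:26456453-26456652, minus strand) and Oasl1 (chr5:114923040-114923203, plus strand) were lower. Ifit3 and Ifit1bl1 were added to the set shown, and Gbp5 left out of it, after their values were seen.
Ifit3: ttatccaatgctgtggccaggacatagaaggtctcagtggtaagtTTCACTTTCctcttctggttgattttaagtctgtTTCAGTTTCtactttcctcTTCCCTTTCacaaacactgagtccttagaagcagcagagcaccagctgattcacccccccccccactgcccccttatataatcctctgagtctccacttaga
Ifit1bl1: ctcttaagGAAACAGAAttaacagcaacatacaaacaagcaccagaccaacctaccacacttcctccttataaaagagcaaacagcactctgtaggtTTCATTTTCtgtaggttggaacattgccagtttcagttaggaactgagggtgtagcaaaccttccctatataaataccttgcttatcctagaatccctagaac
Gbp2: ctcttttagtTTCACTTTCactgtcttaag
Ifit1: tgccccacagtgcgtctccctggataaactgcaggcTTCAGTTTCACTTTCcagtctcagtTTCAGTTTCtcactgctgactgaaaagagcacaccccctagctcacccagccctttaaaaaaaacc
Rsad2: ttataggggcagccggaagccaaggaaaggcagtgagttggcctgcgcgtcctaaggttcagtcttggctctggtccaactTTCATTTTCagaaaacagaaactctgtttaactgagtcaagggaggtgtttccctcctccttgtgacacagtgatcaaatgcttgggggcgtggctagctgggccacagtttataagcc
Oasl1: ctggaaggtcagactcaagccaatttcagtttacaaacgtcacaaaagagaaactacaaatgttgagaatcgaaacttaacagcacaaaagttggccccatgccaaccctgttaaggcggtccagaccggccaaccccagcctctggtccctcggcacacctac

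RefSeq promoters (250 bases before to 50 after the start) matched 35 of the 43 members, and each motif was searched on both strands, where matches of different motifs may overlap. The 35 members had 43 promoter entries, and a member was counted if any of its entries matched. The shares of all promoters are per entry, so that the units differ and the share of members is favoured. The ISRE core occurred in 22 of these 35 members (62.9%), against 8.56% of all 32851 promoters of the same length. The GAS letters TTCNNNGAA occurred in 11 members (31.4%, against 8.30% of all promoters). The full cyclic AMP response element TGACGTCA occurred in 0 members (against 1.79%), and the TGACG it contains in 8 (22.9%, against 20.8%). Of the 8 members called higher with PGE2 under poly I:C, all 8 had a promoter entry and 6 held the ISRE core, 3 the GAS letters and 2 the letters TGACG. Of the 8 called lower, 5 held the ISRE core, 1 the GAS letters and 4 the letters TGACG. Oasl1 had no ISRE core match in its window. A match describes letters and not a bound site.

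Library totals ran from 42666 to 438491 counts with a median of 295484.5. In 3 libraries at 4 h the total was under 40% of the median (EP4 antagonist A, untreated A and EP1 antagonist A). A count of 0 allows up to 3 counts, or 10.2 CPM at the median depth, which covers counting error only. CPM are counts scaled to a common library total after TMM normalisation, and are compared between groups and not between genes. All 12 cDC1 markers had counts in every group. Their sum at 24 h was 9232 to 9659 CPM in untreated cells, 6211 to 6383 CPM with PGE2, 5249 to 5928 CPM with poly I:C and 5656 to 6691 CPM with both. The 6 cDC2 markers in the table summed to 68.9 to 104 CPM in untreated cells, 126 to 174 CPM with PGE2, 11.3 to 28.5 CPM with poly I:C and 48.1 to 61.0 CPM with both, with Sirpa, Mgl2 and Clec10a at 0 with poly I:C and Mgl2 at 0 with both. Of the 9 markers of plasmacytoid dendritic cells, another strong source of interferon, Klk1 was at 0 in all 4 groups at 24 h. Cox6a2 was also at 0 with PGE2 and with poly I:C, Pacsin1 with PGE2, and Ly6d and Spib with both agents. The 9 markers summed to 33.8 to 55.8 CPM in untreated cells, 30.5 to 52.7 CPM with PGE2, 62.1 to 134 CPM with poly I:C and 48.1 to 166 CPM with both. The 11 macrophage and monocyte markers summed to 1144 to 1592 CPM in untreated cells, 1740 to 2076 CPM with PGE2, 502 to 694 CPM with poly I:C and 449 to 494 CPM with both. Of these Mertk was at 0 in all 4 groups, and Adgre1 in both groups with poly I:C. Their part in the results was not tested. In these bulk samples fewer responding cells and less RNA per cell cannot be told apart.

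How far did poly I:C raise these genes? Poly I:C raised every member that could be tested, 40 of 40, while 31.3% of all 5273 genes tested were called higher (1651 higher, 1777 lower). The members together took 0.178 ± 0.042% of all counts in untreated cells (SD, n = 4) and 2.35 ± 0.0879% after poly I:C. In all 40 the 4 poly I:C libraries stood above the 4 untreated ones, as they did in 29.9% of all genes tested. Most members were near 0 before the stimulus. In a filter on the untreated and PGE2 groups alone 15 would have been tested, so the others entered the test through their level with poly I:C and had to differ. The 3 untested members were also counted mainly with poly I:C. Oas1a stood at 8.09 ± 6.23 CPM, Oas2 at 8.76 ± 6.86 CPM and Ifi44 at 29.8 ± 7.69 CPM after poly I:C, against 0, 0 and 0.82 CPM in untreated cells. With library totals in place of TMM scaling the median of all genes was -0.87 on the log2 scale, the calls over all genes were 975 higher and 3087 lower, and 39 members were called higher.

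**Figure D1:**
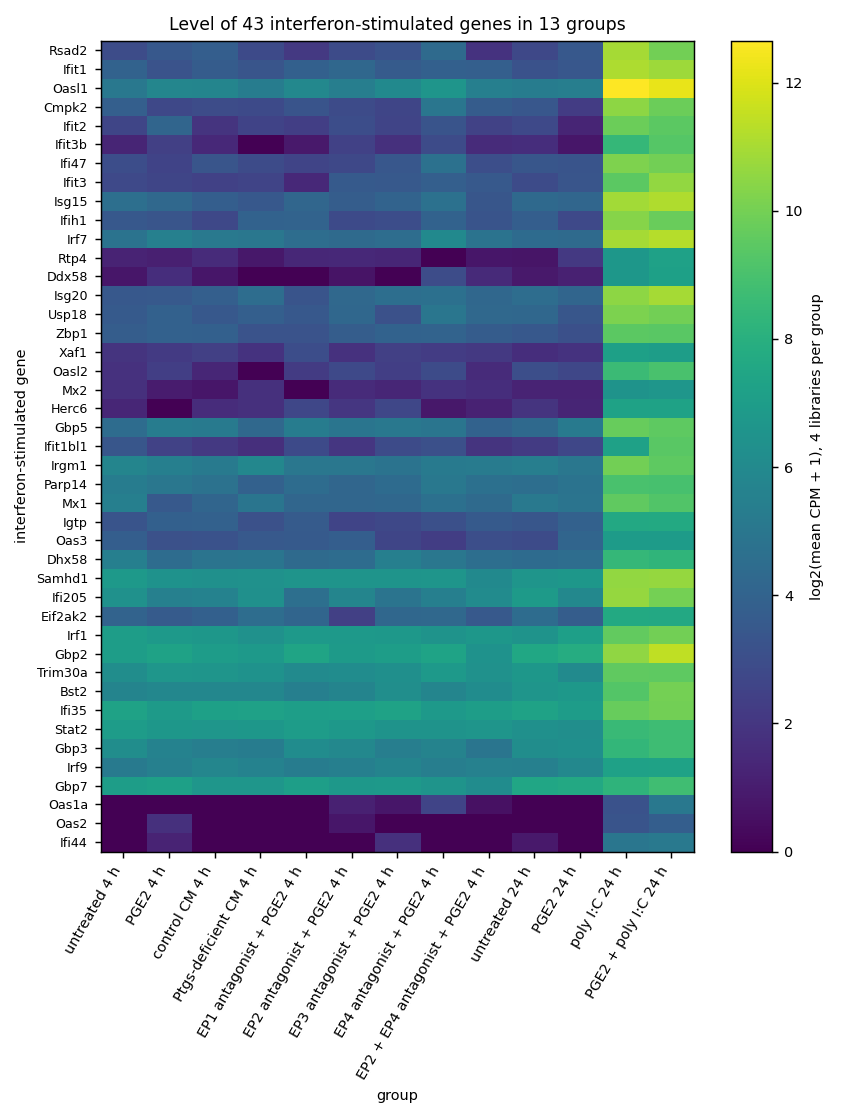
Mean level of the 43 interferon-stimulated genes in 13 groups, as log2(mean CPM + 1) over 4 libraries per group, ordered by the response to poly I:C with the 3 untested genes at the bottom. Each row is read from left to right, since levels are not comparable between genes, and the 2 columns at the right, both with poly I:C, stand apart from the other 11.

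The size of the response differed widely among members. Over the 35 tested members with more than 3 counts in untreated cells, the log2 fold change ranged from 0.65 for Gbp7 to 8.18 for Rsad2. Their median was 4.48, and that of all genes tested was -0.10. Members that entered the test only through their level with poly I:C had to rise, so these medians are not comparable. With PGE2 present all 40 tested members were again called higher after poly I:C than with PGE2 alone (30.8% of all genes), and the log2 fold change ranged from 0.98 (Gbp7) to 7.83 (Cmpk2) over the 34 with more than 3 counts. Here too 15 members would pass a filter on the untreated and PGE2 groups alone. The others had to differ, so that the share of members is not comparable with that of all genes. With library totals alone 38 members were called, without Gbp7 (0.20, adjusted p = 0.237) and Irf9 (0.47, adjusted p = 0.0892), and the calls over all genes went from 1622 higher and 1794 lower to 890 and 3085. The members then took 2.32 ± 0.0485% of all counts, from 0.18 ± 0.00508% with PGE2 alone. The 4 libraries with PGE2 and poly I:C held between 2.26 and 2.36%, inside the range of 2.23 to 2.45% with poly I:C alone.

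**Figure D2:**
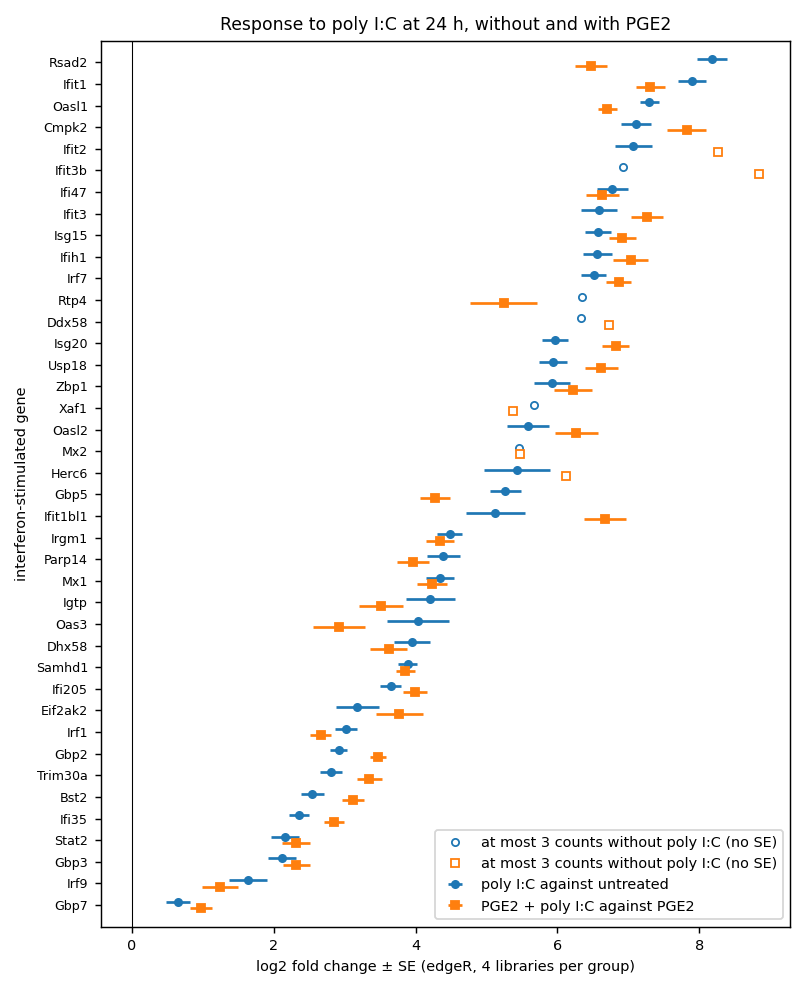
Log2 fold change ± SE of the 40 tested members at 24 h for poly I:C against untreated cells (circles) and for PGE2 + poly I:C against PGE2 (squares). Hollow symbols mark genes with at most 3 counts in the group without poly I:C, whose fold change has no reliable size. All symbols lie above 0, from Gbp7 at the bottom to Rsad2 at the top.

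How did PGE2 change the response? Single members moved in both directions while their summed share of the counts lay within the range seen with poly I:C alone. With PGE2 and poly I:C, 8 of the 40 tested members were higher than with poly I:C alone (5.03% of all genes tested were) and 8 were lower (5.65% of all genes). All genes here include those that passed the filter only through groups without poly I:C. With only the groups compared 3214 genes were tested, of which 283 were higher and 275 lower, and 19 of the 40 members were called. The shares of members and of all genes in this paragraph are therefore not closely comparable. The shifts ranged from 0.31 to 2.16 on the log2 scale among those called higher and from 0.29 to 0.99 in size among those called lower. Over the 40 the median shift was 0.05, against -0.01 over all genes, and 23 had an unadjusted p under 0.05 (22.0% of all genes). The 8 higher members were Ifit1bl1, Ifit3, Gbp2, Ifit3b, Bst2, Gbp7, Isg20 and Irf7, and the 8 lower ones Rsad2, Cmpk2, Ifi205, Ifih1, Irgm1, Oasl1, Ifit2 and Ifit1. All libraries with PGE2 stood above those without in 13 of the 40 (6.98% of all genes tested), among them the 8 called higher, and below them in 6 (7.0% of all genes), which were the members called lower other than Ifit2 and Irgm1. Of the 16 calls 11 held in every alternative run. Those of Ifit1, Ifit2, Irf7, Irgm1 and Ifi205 were lost in at least 1, and without poly I:C library D 5 members remained called lower. This comparison and that of poly I:C with untreated cells use the same poly I:C libraries, so their values are given side by side only.

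**Figure D3:**
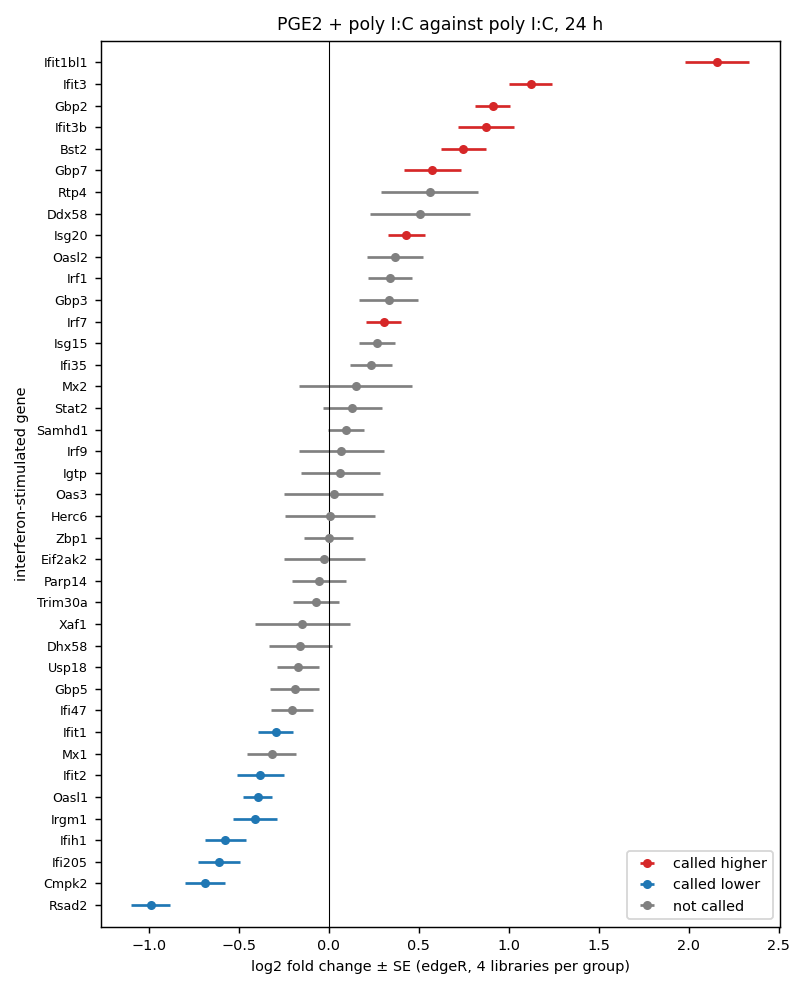
Log2 fold change ± SE of PGE2 + poly I:C against poly I:C at 24 h for the 40 tested members, with 8 called higher (red), 8 called lower (blue) and 24 not called (grey). Ifit1bl1 at 2.16 and Rsad2 at -0.99 are the ends of the range.

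Among the IFIT genes, whose proteins bind foreign RNA and block its translation, PGE2 moved neighbours in opposite directions. Ifit1bl1, an Ifit1-like gene, stood at 81.3, 113, 209 and 192 CPM with poly I:C (libraries A to D) and at 612, 672, 827 and 617 CPM with PGE2 and poly I:C. Every library with PGE2 was higher than every one without, the means were 682 ± 100.4 CPM and 149 ± 61.4 CPM (SD, n = 4), and the log2 fold change was 2.16 ± 0.18 (SE, edgeR adjusted p = 3.63e-22). This was a ratio of means of 4.59, and the gene stood at 3.61 CPM in untreated cells and 5.44 CPM with PGE2 alone. Ifit3 was at 569, 564, 741 and 985 CPM with poly I:C and at 1453, 1374, 1604 and 1839 CPM with PGE2 added, again without overlap (1.12 ± 0.12, adjusted p = 1.03e-14). Its close copy Ifit3b was at 279, 339, 289.9 and 461 CPM and then 562, 576, 672 and 709 CPM (0.87 ± 0.15, adjusted p = 3.55e-06). The untreated group held 3 counts of Ifit3b in all. Ifit3 and Ifit3b shared 869 windows of 50 bases over whole transcripts, 51.2% of those in Ifit3, but 0 in the last 500 bases and 199 in the last 1000, so that reads near the 3′ end tell them apart and others may not.

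Ifit1, which recognises RNA lacking the host cap methylation, was among the strongest responders to poly I:C and was lower with PGE2. Its 4 untreated libraries stood at 10.7, 11.3, 0 and 9.85 CPM, and poly I:C raised them to 2241, 2179, 2015 and 2189 CPM, a log2 fold change of 7.90 ± 0.20 (adjusted p = 2.13e-90). With PGE2 and poly I:C it was at 1776, 1901, 1765 and 1579 CPM, below all 4 libraries without PGE2, a fall of 0.29 ± 0.10 on the log2 scale (adjusted p = 0.0334). Ifit2, which favours cell death in infected cells, rose with poly I:C from 8.06, 0, 2.82 and 13.1 CPM to 1039, 796, 727 and 1049 CPM (7.07 ± 0.26). With PGE2 added it stood at 791, 602, 727 and 657 CPM, where the groups overlapped (-0.38, adjusted p = 0.0386). The 5 genes lie in a single cluster on chromosome 19 (GRCm38) in the order Ifit2 (34550694 to 34576419), Ifit3 (34583531 to 34588731), Ifit1bl1 (34592891 to 34601956, on the minus strand), Ifit3b (34607970 to 34613401) and Ifit1 (34640871 to 34650009). The 3 genes in the middle were higher with PGE2, and those at both ends were lower. The calls at the ends were close to the threshold, and were lost in 5 of 13 alternative runs for Ifit1 and in 6 of 13 for Ifit2.

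Of the OAS family, which senses double-stranded RNA and activates RNase L, 3 of 5 members were tested and 1 fell with PGE2. Oasl1, an OAS-like protein that in mice restrains translation of Irf7 messenger RNA, rose from 32.2, 25.4, 42.3 and 52.5 CPM in untreated cells to 6566, 6581, 6226 and 6393 CPM with poly I:C (7.30 ± 0.13). With PGE2 and poly I:C it stood at 5070.1, 4714, 4618 and 5181 CPM, below every library without PGE2, which was 76% of the mean (-0.39, adjusted p = 8.57e-05). Oasl2, which lies beside it on chromosome 5 (114896936 to 114912234), stood at 397 ± 13.8 CPM with poly I:C and 511 ± 30.6 CPM with PGE2 added, without overlap of libraries but short of the threshold (0.37 ± 0.15, adjusted p = 0.12). It passed with only the groups compared. Oas3 was at 123 ± 17.2 CPM and 123 ± 30.9 CPM. The untested Oas1a stood at 17.4, 5.64, 4.75 and 4.56 CPM with poly I:C and 24.9, 21.8, 16.7 and 68.1 CPM with PGE2 added, overlapping, and Oas2 at 8.76 ± 6.86 CPM and 12.7 ± 6.99 CPM.

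Among the other antiviral effectors 2 rose and 2 fell with PGE2 under poly I:C. Rsad2 encodes viperin, which makes a chain-terminating nucleotide from CTP. It had the largest response to poly I:C of the members with more than 3 counts at baseline, from 5.37, 5.64, 5.64 and 6.56 CPM to 2334, 2111, 1749 and 1632 CPM (8.18 ± 0.22, adjusted p = 5.98e-87). With PGE2 it reached 1059.8, 955, 994 and 926 CPM, so that its highest library lay below the lowest without PGE2. The mean was 50.3% of that with poly I:C alone (-0.99 ± 0.11, adjusted p = 1.67e-14). Cmpk2, a mitochondrial nucleotide kinase gene next to Rsad2 on chromosome 12 (26469204 to 26479837), moved the same way. It rose from 2.69, 5.64, 11.3 and 19.7 CPM to 1515, 1529.5, 1473 and 1368 CPM with poly I:C (7.11 ± 0.21), and stood at 990.1, 811, 910.3 and 938 CPM with PGE2 added (-0.69, adjusted p = 4.16e-07). These libraries did not overlap, and the mean was 62% of that without PGE2.

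Bst2, or tetherin, which holds budding virus at the cell surface, was already present in untreated cells at 97.2 ± 21.5 CPM. With poly I:C its libraries were at 528, 632, 523 and 743 CPM, and with PGE2 added at 831, 977, 1093 and 1178 CPM. All libraries with PGE2 were higher (0.75 ± 0.13, adjusted p = 8.45e-07). The exonuclease gene Isg20 stood at 1498, 1558, 1240.5 and 1496 CPM with poly I:C and at 1980.3, 1962, 1870.5 and 1979 CPM with PGE2 added, again without overlap (0.43 ± 0.10, adjusted p = 0.00124). The dNTP hydrolase gene Samhd1 (1533 ± 85.7 CPM and 1635 ± 95.8 CPM) and the dynamin-like GTPase genes Mx1 (753 ± 87.7 CPM and 603 ± 69.6 CPM) and Mx2 (89.2 ± 35.4 CPM and 99.5 ± 17.5 CPM) overlapped between both groups and were not called. In the gene annotation used here Mx2 is a polymorphic pseudogene.

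The ISG15 system, a ubiquitin-like modifier with its protease Usp18 and its ligase Herc6, rose with poly I:C in all 3 members, and they were not called with PGE2 added. Isg15 went from 5.37, 11.3, 22.5 and 36.1 CPM in untreated cells to 1759, 2026, 1929.6 and 1919.7 CPM with poly I:C (6.58 ± 0.18). With PGE2 added it was at 2229, 2259, 2431 and 2259.8 CPM, above every library without PGE2, but at an adjusted p of 0.0743 (0.27 ± 0.10). The threshold was passed with DESeq2, with the replicate letter as a block and with only the groups compared. Usp18 stood at 1128 ± 114 CPM with poly I:C and 1003 ± 75.8 CPM with PGE2 added, and Herc6 at 154 ± 27.1 CPM and 157 ± 57.2 CPM.

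Of the 4 transcription factors 1 was called higher with PGE2 added. Irf7, the factor that amplifies interferon production, rose from 5.37, 16.9, 19.7 and 39.4 CPM to 2038, 1925, 1773 and 2129.5 CPM with poly I:C (6.51 ± 0.17), and to 2334, 2237, 2359 and 2781 CPM with PGE2 added (0.31, adjusted p = 0.023). Its libraries did not overlap, but the call was lost with no filter (adjusted p = 0.109), without poly I:C library C (0.145) and without library C (0.0503) or D (0.201) of PGE2 and poly I:C. Irf9 and Stat2, whose proteins bind the ISRE together, were expressed before the stimulus and responded least among the factors. Irf9 went from 21.5, 39.4, 50.7 and 68.9 CPM to 163, 147, 162 and 128 CPM (1.63 ± 0.27) and stood at 174, 166, 189 and 104 CPM with PGE2 added. Stat2 went from 59.1, 67.6, 78.9 and 115 CPM to 459, 299, 442 and 333 CPM (2.16 ± 0.19) and stood at 438, 427, 483 and 337 CPM with PGE2 added. For both the libraries with and without PGE2 overlapped under poly I:C (log2 fold changes of 0.07 ± 0.24 and 0.13 ± 0.16). Irf1, which acts early in the response and through GAS sites, went from 85.97, 78.9, 87.4 and 108 CPM to 824, 739, 732 and 844 CPM with poly I:C (3.01 ± 0.16), and its libraries with PGE2 and poly I:C were at 1079.7, 898, 883 and 1106 CPM. They lay above those without PGE2, with an adjusted p of 0.0514, and the threshold was passed with a replicate block and with only the groups compared.

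Of the nucleic acid sensors 2 fell with PGE2 under poly I:C. Ifih1 encodes MDA5, the cytosolic sensor of long double-stranded RNA such as poly I:C. It rose from 8.06, 8.45, 14.1 and 19.7 CPM to 1324, 1269.9, 1217 and 1382 CPM (6.56 ± 0.20) and reached 985, 868, 777 and 849 CPM with PGE2. No libraries overlapped, and the mean was 67% of that with poly I:C alone (-0.58, adjusted p = 3.78e-05). Ddx58, which encodes RIG-I, a sensor of short RNA with a triphosphate end, was at 0, 0, 0 and 3.28 CPM in untreated cells, a single count. It stood at 87.1, 102, 76.04 and 141 CPM with poly I:C and 164, 161, 122 and 132 CPM with PGE2 added, where the groups overlapped (0.51 ± 0.28, adjusted p = 0.271). Ifi205, a member of the AIM2-like PYHIN family, stood at 1945, 1642, 1440.1 and 1359 CPM with poly I:C and at 1194, 989.9, 1027 and 966 CPM with PGE2 added, without overlap (-0.61, adjusted p = 4.65e-05 and 0.0584 with DESeq2). Dhx58 (LGP2), Eif2ak2 (PKR) and Zbp1, a sensor of Z-form nucleic acid, were not called, with log2 fold changes of -0.16, -0.02 and 0.00 ± 0.14.

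Among the interferon-induced GTPases, which attack the membranes of intracellular pathogens, 2 guanylate-binding proteins rose and Irgm1 fell. Gbp2 stood at 169, 172, 163 and 229.7 CPM in untreated cells and at 252, 211, 254 and 183 CPM with PGE2. Poly I:C brought it to 1649, 1219, 1573 and 1505 CPM (2.91 ± 0.12) and PGE2 with poly I:C to 2891, 2795, 2747 and 2721 CPM. The libraries with both agents lay well above all others (0.91 ± 0.10 against poly I:C, adjusted p = 4.76e-15). Gbp7 had the smallest response to poly I:C of the members tested, from 177, 175, 132 and 219.9 CPM to 261, 316, 299 and 306 CPM (0.65 ± 0.17, and -0.13 with library totals alone). With PGE2 added it was at 443, 493, 444 and 385 CPM, higher in every library (0.57 ± 0.16, adjusted p = 0.00599). Gbp5, which promotes inflammasome assembly and lies in the same cluster on chromosome 3 (142493978 to 142522344), was not called (829 ± 109.7 CPM and 728 ± 153 CPM), nor was Gbp3 (335 ± 57.4 CPM and 421 ± 83.5 CPM).

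The immunity-related GTPase gene Ifi47 rose from 10.7, 5.64, 5.64 and 16.4 CPM to 1213, 1253, 951 and 1245 CPM with poly I:C (6.78 ± 0.22) and stood at 1134, 924, 1032 and 954 CPM with PGE2 added, overlapping. Irgm1, which regulates the other IRG proteins, was at 993, 1044, 827 and 1076 CPM and then 731, 855, 649 and 717 CPM, also overlapping, but was called lower (-0.41, adjusted p = 0.0164). Igtp stood at 196 ± 16.9 CPM and 205 ± 50.5 CPM. The 5 tested members of the remainder were not called for PGE2 under poly I:C. Their shifts ran from -0.15 for Xaf1 to 0.56 for Rtp4, and Rtp4 and Ifi35 had no overlap between the groups.

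**Figure D4:**
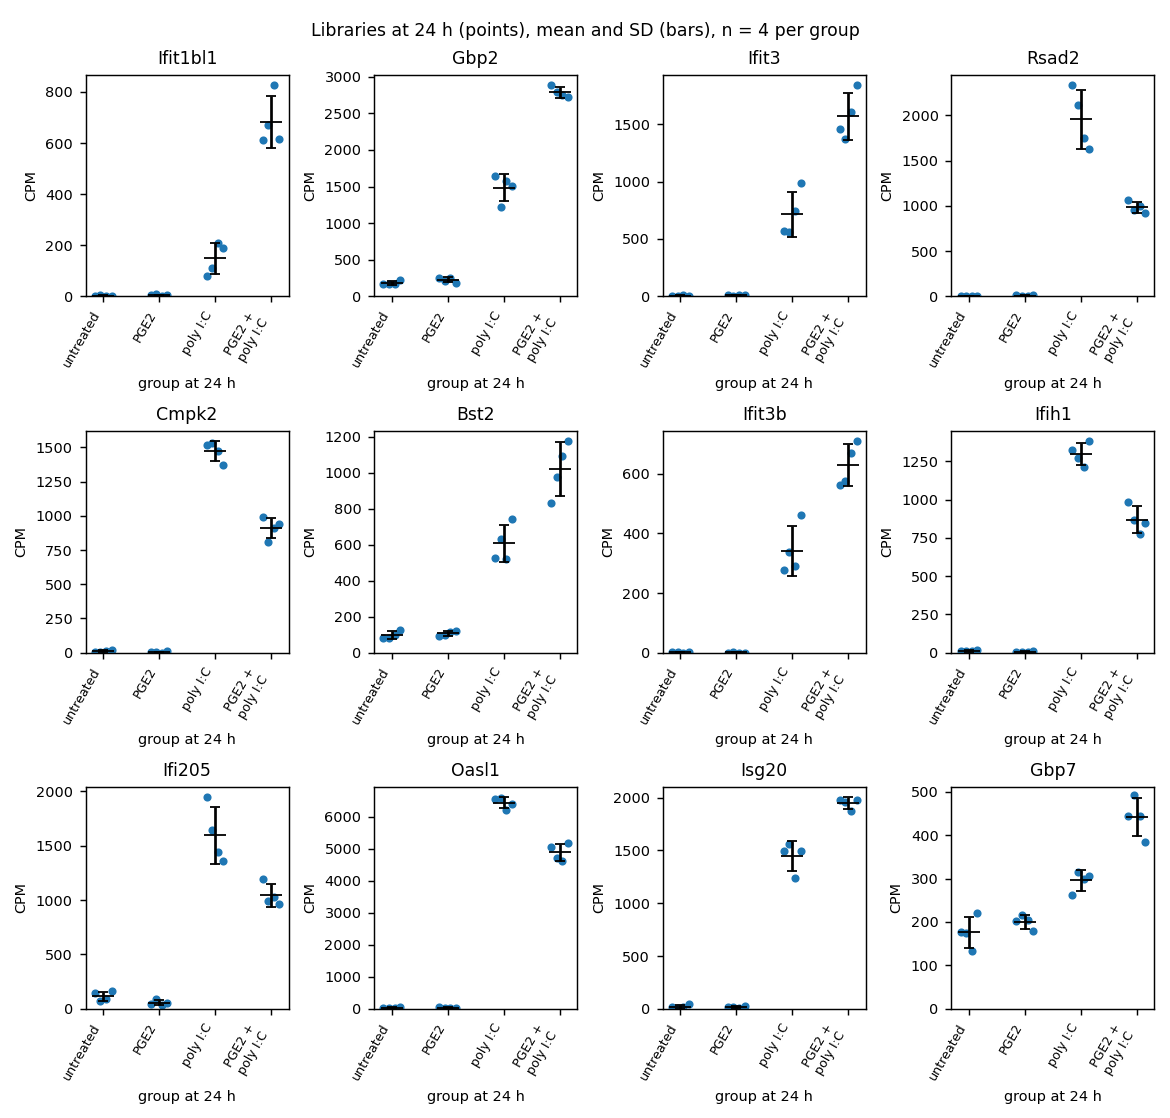
CPM of the 12 members with the smallest adjusted p among those called for PGE2 under poly I:C, in the 4 groups at 24 h. Points are libraries A to D from left to right and bars the mean and SD (n = 4). Ifit1bl1, Gbp2, Ifit3, Bst2, Ifit3b, Isg20 and Gbp7 are highest with both agents, and Rsad2, Cmpk2, Ifih1, Ifi205 and Oasl1 are highest with poly I:C alone.

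Did PGE2 change these genes without poly I:C, and was its effect larger with it? At 24 h PGE2 alone raised 1 of the 40 tested members (4.74% of all genes were called higher) and lowered 1 (3.22% of all genes). Since 25 of the 40 were too low in both groups to pass a filter on these alone, the share of members is not comparable with that of all genes. The member that rose was Irf1, from 85.97, 78.9, 87.4 and 108 CPM to 169, 167, 73.5 and 159 CPM, where library C lay below all 4 untreated libraries (0.69 ± 0.19, adjusted p = 0.00829). The call was lost without PGE2 library A or B (adjusted p = 0.0802 and 0.0734) and with no filter (0.0527). Ifi205 was lower, at 47.1, 91.6, 36.8 and 57.9 CPM against 145, 76.1, 90.2 and 161 CPM, with overlap (-0.95, adjusted p = 0.00183).

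The interaction, which asks whether the effect of PGE2 differs with and without poly I:C, was called higher for 1 member (0.853% of all genes) and lower for none (2.43% of all genes), by edgeR and by DESeq2, and 8 members had an unadjusted p under 0.05 (14.4% of all genes). That member was Gbp2, whose log2 shift by PGE2 was 0.36 ± 0.14 without poly I:C (adjusted p = 0.111) and 0.91 ± 0.10 with it, a difference of 0.55 ± 0.17 (adjusted p = 0.0481). The call lay close to the threshold. It was lost with library totals alone (adjusted p = 0.0513), without a filter (0.162) and when any of 10 single libraries was left out, the highest adjusted p being 0.192 without untreated library D. Members near 0 without poly I:C had wide errors here, and the interaction was 1.55 ± 0.93 for Ifit1bl1 and -1.71 ± 0.64 for Rsad2 (SE, adjusted p = 0.495 and 0.132). For these genes a difference between the effects of PGE2 was not detectable at this depth.

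Other genes of the interferon pathway, on lists of 117 genes of which 96 were in the table, show what surrounded the members. Of 21 listed interferon genes only 3 were in the table, so that the others could not be assessed. Both tested interferon genes, Ifnl2 and Ifnl3 (type III interferon, whose copies can share reads), had 0 counts at 24 h in untreated cells and with PGE2 alone. Ifnl2 stood at 267, 231, 95.1 and 72.96 CPM with poly I:C and 34.8, 21.8, 11.1 and 8.01 CPM with PGE2 added. Ifnl3 stood at 139, 198, 105 and 59.3 CPM and 34.8, 26.2, 22.2 and 12.02 CPM. In both genes the groups were apart. Both passed the filter only through groups with poly I:C, so that their call as lower with PGE2 added is given as a description. Ifnb1, the type I interferon first made in many cells, was not tested: it was at 0, 28.2, 28.5 and 0 CPM with poly I:C, and at 0 in every library with PGE2 added and in those without poly I:C.

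Of 5 JAK and STAT genes 1 was called higher, the receptor-bound kinase gene Jak2, with PGE2 under poly I:C (0.70 ± 0.15, adjusted p = 0.000118). Of 8 tested inhibitors 1 was lower, Socs1, which blocks JAK kinases (674 ± 49.8 CPM against 1135 ± 88.8 CPM, -0.75). Of 5 receptor genes 1 was lower, Il10rb, a chain of the type III interferon receptor (-0.79). The 6 tested genes of the induction pathway were not called. Over all genes tested, 5.03% were called higher and 5.65% lower in this comparison. With PGE2 alone at 24 h, 1 JAK or STAT gene was called higher, 1 inhibitor lower and 1 receptor gene higher. Of all genes 4.74% were higher and 3.22% lower there. Of 43 tested further interferon-stimulated genes (64 listed), 41 rose and 1 fell with poly I:C, but 17 would pass a filter on the untreated and PGE2 groups alone, so that the others had to differ. With PGE2 added 3 were higher (Epsti1, Ms4a4c and Mndal) and 3 lower (Slfn8, Lgals9 and Ly6e), shares near those of all genes given above for this comparison. Epsti1 was at 23.2, 33.9, 0 and 0 CPM with poly I:C and 84.6, 74.1, 61.1 and 56.1 CPM with PGE2 added, and it passed the filter only through the latter group.

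What did the members do within 4 h, without poly I:C? They were low throughout, with 0.132 to 0.179% of all counts as the group means, and 18 of 43 passed the filter. PGE2 lowered 1 of the 18 (3.35% of all genes) and raised none by edgeR or DESeq2, with 5 at an unadjusted p under 0.05 (19.2% of all genes). That member was Mx1, at 60.3, 46.9, 25.7 and 36.99 CPM in untreated cells and 0, 22.9, 8.66 and 11.1 CPM with PGE2, without overlap (a fall of 1.78 ± 0.56, adjusted p = 0.0209). The call rests on few counts and was lost without PGE2 library A (adjusted p = 0.112), PGE2 library C (0.0876) or untreated library B (0.0837) and with no filter (0.0533). With only the groups compared Mx1 did not pass the filter. With library totals alone Ifi205 and Ifi35 were also called lower, and the calls over all genes were 237 higher and 332 lower, against 300 and 193. Gbp5 stood at 45.2, 13.4, 17.1 and 10.6 CPM in untreated cells and 18.9, 53.5, 51.95 and 33.3 CPM with PGE2 (1.33 ± 0.47, adjusted p = 0.0544). It passed the threshold without untreated library A, a shallow library in which it was high, and without PGE2 library A, in which it was low.

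In conditioned medium none of the 18 tested members was called, in either direction, by edgeR or DESeq2. The share of all genes called was 3.95% between control and Ptgs-deficient CM, 7.56% between control CM and untreated cells and 0.0869% between Ptgs-deficient CM and untreated cells. At an unadjusted p under 0.05 there were 3, 4 and 2 members, against 13.6, 17.9 and 6.24% of all genes. Mx1 stood at 16.4, 18.3, 12.4 and 19.1 CPM in control CM and 39.96, 27.2, 19.98 and 29.6 CPM in Ptgs-deficient CM. Every control library was lower, but the adjusted p was 0.526. Gbp5 stood at 24.6, 40.2, 37.1 and 35.5 CPM and 22.8, 18.2, 19.98 and 13.1 CPM, with control CM higher in every library and an adjusted p of 0.352.

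With a single antagonist before PGE2 none of the 18 tested members was called against PGE2 alone by edgeR. DESeq2 also called none, but for EP2 it gave an adjusted p to only 6 of the 18. The share of all genes called was 0.0% for EP1, 0.417% for EP2, 0.0695% for EP3 and 0.0348% for EP4, and 3, 2, 2 and 1 members had an unadjusted p under 0.05 (4.80, 9.35, 8.57 and 5.86% of all genes). In the group titled EP2 and EP4, 3 members were lower than with PGE2 alone (5.32% of all genes) and none higher, by edgeR and by DESeq2, with 5 at an unadjusted p under 0.05 (21.3% of all genes). All 3 were guanylate-binding proteins of the cluster on chromosome 3. Gbp2 was at 85.3, 69.2, 108 and 79.2 CPM against 132, 138, 156 and 194 CPM (a fall of 0.84 ± 0.22, adjusted p = 0.00406). Gbp5 was at 10.2, 17.3, 16.2 and 15.8 CPM against 18.9, 53.5, 51.95 and 33.3 CPM (a fall of 1.46 ± 0.44, adjusted p = 0.0133). Gbp7 was at 62.99, 43.2, 78.1 and 99.5 CPM against 160.3, 141, 170.3 and 117 CPM (a fall of 1.05 ± 0.23, adjusted p = 0.000346). In all 3 the libraries of the combined group lay below those with PGE2 alone (6.73% of all genes). The call of Gbp5 was lost without PGE2 library B or C, without library A of the combined group and with no filter, and with only the groups compared Gbp5 did not pass the filter. Untreated cells stood at 132, 21.6 and 130.1 CPM for Gbp2, Gbp5 and Gbp7.

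**Figure D5:**
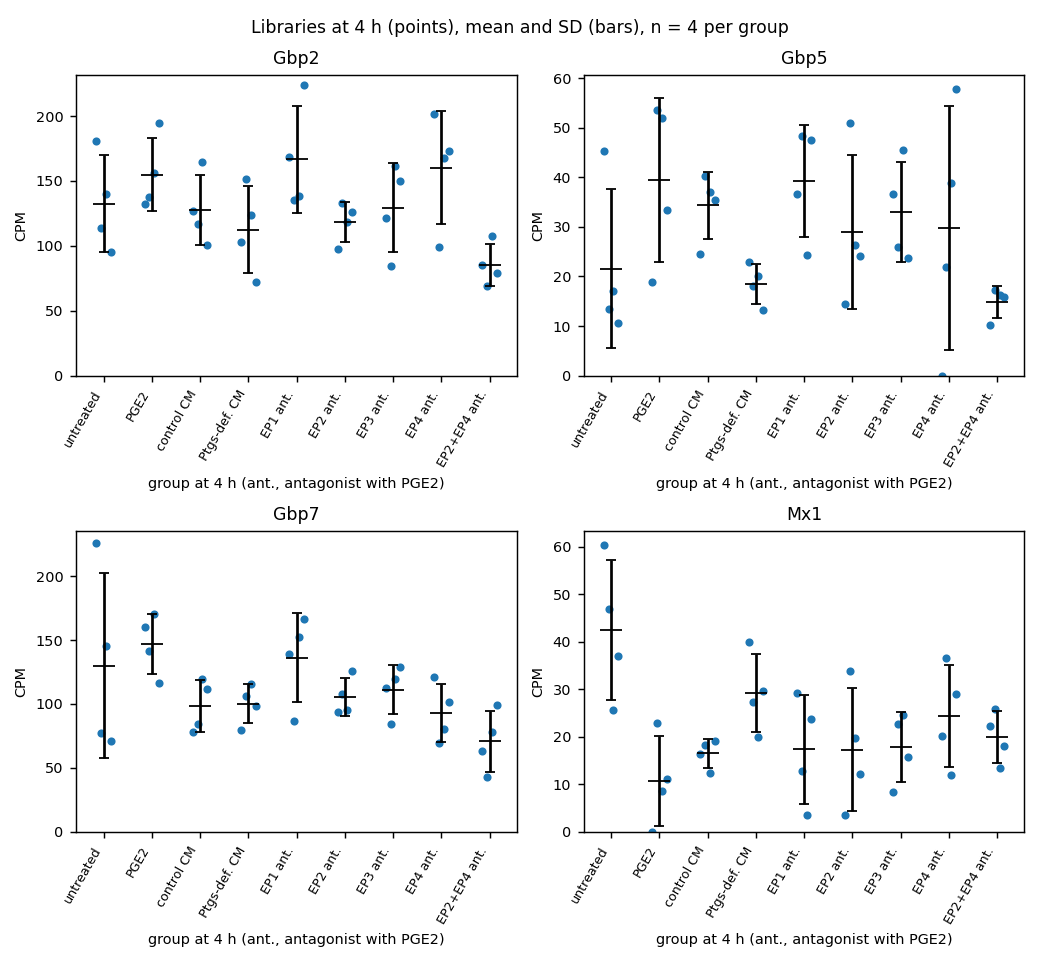
CPM of the 4 members called in a comparison at 4 h, in 9 groups. Points are libraries A to D from left to right and bars the mean and SD (n = 4), with the antagonist groups also given PGE2. Gbp2, Gbp5 and Gbp7 have their lowest mean in the group titled EP2 and EP4, and Mx1 has its lowest mean with PGE2.

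Time in culture moved few members. Between untreated cells at 24 h and at 4 h, 2 of 19 tested members were higher at 24 h (2.30% of all genes) and none lower, with 5 at an unadjusted p under 0.05 (15.6% of all genes). DESeq2 gave an adjusted p to 9 of the 19 and also called 2 higher and none lower. Bst2 stood at 83.3, 81.7, 95.8 and 128 CPM at 24 h and 60.3, 53.6, 39.98 and 50.2 CPM at 4 h, apart from each other (0.97 ± 0.28, adjusted p = 0.019), but the call was lost without untreated library D of either time or library C at 4 h. Gbp7 was at 177, 175, 132 and 219.9 CPM and 226, 77.1, 146 and 71.3 CPM, with overlap (0.68 ± 0.21, adjusted p = 0.0316), and was lost without any of 5 single libraries. The effect of PGE2 differed between 24 h and 4 h for none of the 19 by edgeR, nor for any of the 18 with an adjusted p by DESeq2, with 3 at an unadjusted p under 0.05 (15.5% of all genes), while 4.35% of all genes were called. For Mx1 the effect was -1.78 at 4 h and -0.20 ± 0.34 at 24 h, a difference of 1.55 ± 0.69 (adjusted p = 0.209).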

How the data were processed

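The authors deposited whole-number counts of unique molecular identifiers (UMIs) per gene and library, made with the Drop-seq pipeline on GRCm38 with Ensembl release 75, per the labels' protocols. The submitters' processing notes name DESeq2 1.14.1 and GRCm38.p6. The aligner is not given in the sources used here. Nor is the use of strand. Reads from exons that overlap on opposite strands, such as Irf7 and Phrf1 or Oasl1 and Gm13822, could therefore not be told apart. For overlaps on the same strand, such as Irf9 and Rnf31, Igtp and Irgm2 or Gbp7 and Gm43802, the strand would not separate the reads. The labels call the 4 samples of a group biological replicates without naming separate animals, so p-values reflect only how these samples vary, which may be technical. Replicate pairs differed beyond counting noise (chi-square per degree of freedom of 1.38 to 2.70 over 78 pairs).

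Of 23136 lines 1 held text and was left out, and 20 with date-like symbols (0.105% of the counts) were named nowhere. Counts were tested with edgeR 4.0.16 (R 4.3.3, limma 3.58.1), by quasi-likelihood with TMM scaling, filterByExpr and robust dispersion. Adjusted p is by Benjamini-Hochberg over all genes tested, at a threshold of 0.05. The SE of a log2 fold change is its unshrunk size divided by the square root of the F statistic. The 36 libraries at 4 h (5754 genes), the 16 at 24 h (5273) and a joint set of both times with the untreated and PGE2 groups (5403) were fitted separately, and the test was checked on simulated data. Alternatives were DESeq2 1.42.0, library totals alone, no filter, a replicate block, only the groups compared, no shallow libraries and leaving out each library. Gene positions are from GENCODE M21 and promoters from RefSeq, both on GRCm38.

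Members and lists were chosen with earlier results of these data known. Values in every library were given for up to 12 members called in the interaction or for PGE2 under poly I:C, the 8 with the largest response to poly I:C, those called at 4 h, and Irf7, Irf9, Stat2, Irf1, Ddx58, Ifih1, Isg15 and Rsad2. Other values by library were chosen after they were seen.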

Additional observations from a re-analysis of the deposited data

Results flagged for a closer look

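Of 61 sets of 4 libraries examined for a library apart from the other 3, 4 had one, and chance marks about 1 in 20 such sets. The share of counts held by the members was 0.266% in untreated library A at 4 h, above the other 3 libraries of that group, and this library is among the 3 shallow ones. Gbp2 stood at 229.7 CPM in untreated library D at 24 h, above the other 3. Ifit3b stood at 2.78 CPM in PGE2 library B at 24 h, which is 1 count, with 0 in the other 3. Isg20 stood at 1870.5 CPM in library C with PGE2 and poly I:C, below the other 3.

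The effect of PGE2 on Gbp2 differed between cells with and without poly I:C, by 0.55 on the log2 scale (edgeR adjusted p = 0.0481). Without untreated library D, the one that stood apart, the difference was 0.44 (adjusted p = 0.192).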

How the results depend on the processing

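Of 466 recomputed counts of called members 427 stayed within 1.5 times the value reported. The 427 include counts of 0 that stayed 0, as in conditioned medium and with a single antagonist. They therefore do not measure how stable the counts above 0 were. With library totals alone Gbp7 reversed in poly I:C against untreated cells (-0.13, adjusted p = 0.476). For PGE2 and poly I:C against poly I:C, 5 members were lower without a filter, and 5 to 8 when 1 library was left out (5 without poly I:C library D). For PGE2 alone at 24 h the count of higher members was 0 without a filter and ran from 0 (PGE2 library A or B) to 2 (untreated library B or D) with 1 library left out, and that of lower members from 1 to 2 (untreated library A or PGE2 library D). In the interaction, 0 members were higher with library totals alone and 0 without a filter, from 0 to 1 with 1 library left out, and from 0 to 1 were lower (Gbp5 without untreated library B). For PGE2 at 4 h, 1 member (Gbp5) was higher without the shallow libraries and from 0 to 1 with 1 library left out (library A of either group). The count of lower members was 3 with library totals alone, 0 without a filter, 0 with only the groups compared (where Mx1 was not tested) and from 0 to 2 with 1 library left out (2 without untreated library D). Between untreated cells of both times 1 member was higher without a filter and from 0 (library D of either time) to 3 (library A at 4 h) with 1 library left out. The cause was not tested.

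Same-lettered libraries deviated together only weakly (median correlation 0.0518 at 24 h, 6 of 24 pairs over 0.1), so the letters were not taken to pair the samples. With a replicate block 10 members were higher and 8 lower for PGE2 under poly I:C. At the depth of these libraries 25 members at 4 h could not be tested.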
